A study of Mus musculus with 16 samples.

Results

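The genes described here are 10 that mark the pigment cell, the melanocyte: Tyr, Tyrp1, Dct, Pmel, Mlana, Oca2, Slc45a2, Trpm1, Gpr143 and Mitf. A probe set, the group of array probes that reads 1 transcript, was taken as theirs where the annotation of the array gave it exactly 1 gene symbol and that symbol was 1 of the 10. All 10 genes were on the array, with 19 probe sets, among 18193 genes and 34945 probe sets with 1 symbol. No filter on low values was applied, so each of the 19 probe sets was tested.

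Melanin is made inside melanosomes, membrane-bound organelles of the melanocyte, by tyrosinase (Tyr) and its relatives Tyrp1 and Dct. Structural proteins, channels and transporters shape the organelle and set the conditions in its lumen, and the transcription factor MITF activates many of these genes. In the furred back skin of mice, pigment is made mostly by melanocytes of the hair follicle, which hand melanin to the growing hair shaft, and the follicle makes pigment only while its hair is growing.

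RNA came from incisional wounds on the backs of C57BL/6 mice, a black-coated inbred strain, in a model in which mechanical load turns a healing wound into a hypertrophic scar. The 4 groups were unstressed wounds at day 6 and at day 14, and stressed wounds at day 6 after 48 hours of loading and at day 14 after 10 days of loading. Each group had 4 arrays and, per the design text, 4 mice. Every mouse was wild type and labelled female, and no transgene or drug is named. Total RNA of whole wound tissue was hybridised to Affymetrix GeneChip arrays. All values below were read as log2 values, and the folds rest on that reading, as the log base is not given. They were centred for each probe set by the authors around an unknown reference, so they show differences between arrays and no absolute level. In such tissue RNA, fewer cells of a type and less RNA per cell cannot be told apart.

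The arrays differed in their Xist and Y-linked signals in a way the groups do not explain. Replicates 3 and 4 of both day 14 groups had a mean Xist signal (3 probe sets) of 4.38 to 5.39 and a mean over 9 probe sets of Y-linked genes of -1.68 to -1.34. The other 12 (the 8 arrays of day 6, and the first and second replicates of the day 14 groups) lay at -0.38 to 0.52 for Xist and at -0.21 to 0.27 for the Y-linked genes, which goes against their label female. These are called the high-Xist and low-Xist arrays below. The SD over the probe sets of an array followed the day, at 0.26 to 0.41 at day 6 and 0.55 to 0.77 at day 14.

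Stretches of DNA before a transcript start of 4 of the genes are shown because Mitf, the gene of the factor known to bind there, is itself 1 of the 10 and its values can be set beside those of the others. MITF is known to bind the M-box, the hexamer CATGTG preceded by T. RefSeq promoter windows on GRCm38.p6 (300 bases, from 250 before to 50 after the start of a transcript) were matched for 6 of the 10 genes, with 9 windows; Mlana, Pmel, Slc45a2 and Gpr143 were not matched. Capitals mark TCATGTG, or CACATGA where the motif lies on the other strand. The 250 bases before the start of Tyr are chr7:87493513-87493762 (minus strand), of Dct chr14:118052247-118052496 (minus strand) and of Trpm1 chr7:64153585-64153834 (plus strand), and for Tyrp1 the 30 bases around its motif are chr4:80834154-80834183 (plus strand).
Tyr: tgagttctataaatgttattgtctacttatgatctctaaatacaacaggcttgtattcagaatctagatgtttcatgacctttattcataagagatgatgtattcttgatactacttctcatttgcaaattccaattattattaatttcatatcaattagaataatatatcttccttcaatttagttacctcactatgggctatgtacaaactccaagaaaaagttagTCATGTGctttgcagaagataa
Dct: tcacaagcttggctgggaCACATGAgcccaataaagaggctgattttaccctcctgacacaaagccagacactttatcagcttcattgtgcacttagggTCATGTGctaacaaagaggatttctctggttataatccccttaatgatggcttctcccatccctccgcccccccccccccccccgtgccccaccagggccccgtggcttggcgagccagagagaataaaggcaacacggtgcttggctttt
Trpm1: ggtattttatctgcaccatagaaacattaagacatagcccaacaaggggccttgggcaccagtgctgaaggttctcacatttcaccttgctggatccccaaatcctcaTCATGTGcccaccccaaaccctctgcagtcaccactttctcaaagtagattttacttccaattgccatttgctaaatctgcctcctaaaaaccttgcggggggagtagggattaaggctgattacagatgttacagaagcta
Tyrp1: gtggggagggagTCATGTGctgcctagtag

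The M-box began 22 bases before the start of Tyr, 142 before that of Trpm1, and 151 and 232 before that of Dct, the last on the other strand. In Tyrp1 it began 47 bases before the start of the transcript in the window, but the annotated gene starts 90 bases before that transcript, so the motif and the stretch printed lie inside the gene. Searched on both strands, TCATGTG was in 4 of the 9 windows of these genes and in 3.77% of all 32851 windows of the same length. The shorter CATGTG, which lies within it, was in 6 of the 9 and in 14.2% of all windows, and CANNTG, which contains both, in 7 of the 9 and in 72.3%. The motif was chosen because MITF is known to bind there, so these shares are a description and not a test. A match is only a run of letters, and no binding was measured here.

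Of the 10 pigment genes, 5 rose from day 6 to day 14 in unstressed wounds and 5 in stressed wounds, 4 of them in both. In unstressed wounds, 8 of the 19 probe sets, of the 5 genes Tyr, Oca2, Trpm1, Slc45a2 and Gpr143, passed a limma adjusted p of 0.05 as higher and 0 as lower, where 16.8% of all probe sets tested passed as higher. In stressed wounds, 6 probe sets, of Tyr, Tyrp1, Oca2, Trpm1 and Slc45a2, were called higher and 0 lower, where 18.7% of all probe sets passed as higher. A gene counted here if any of its probe sets passed. With 1 probe set per gene, 4 of the 10 were called higher in unstressed and 3 in stressed wounds. In that fit 23.1% and 24.0% of all genes were called higher, so the stressed count is near the background. The median difference over the 19 was 1.05 in unstressed and 0.92 in stressed wounds, against -0.05 and -0.07 over all probe sets. In unstressed wounds all 19 differences were above 0, and in stressed wounds 18 were. Of the 19, 5 probe sets in unstressed wounds (Tyr, Trpm1 and Slc45a2) and 5 in stressed wounds (Tyr, Oca2, Trpm1 and Slc45a2) had every day 14 array above every day 6 array, where 16.5% of all probe sets did so as higher in each case.

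**Figure D1:**
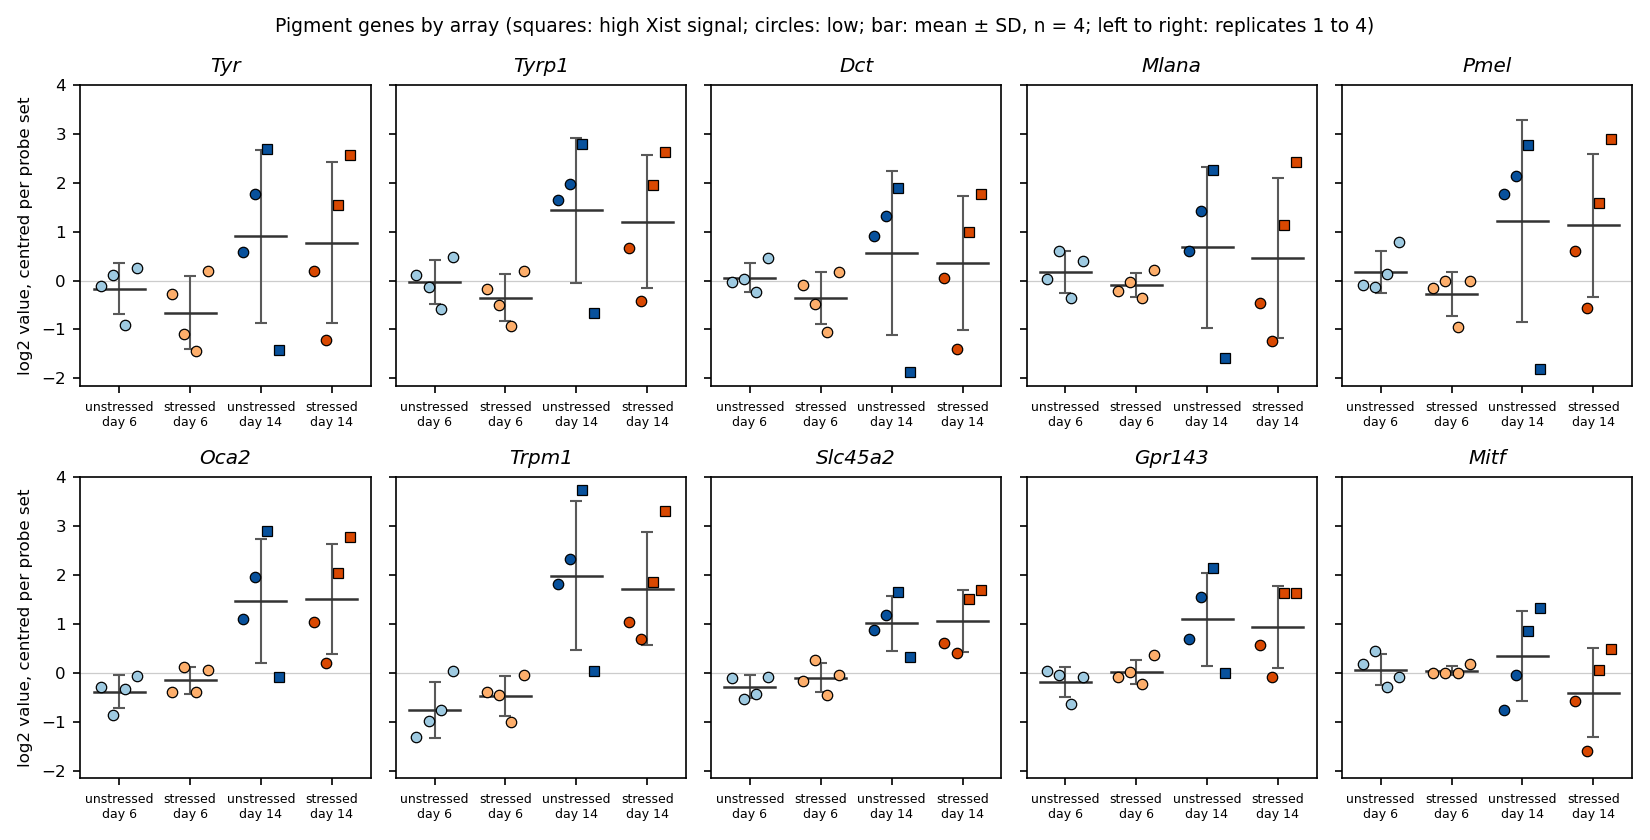
The log2 value (centred per probe set) of the most variable probe set of each of the 10 genes, with 1 point per array, in the 4 groups; bars give the mean ± SD (n = 4), and squares are the high-Xist arrays. The day 14 arrays spread wider than the day 6 arrays, mostly upward for the genes other than Mitf, and replicate 4 of the unstressed day 14 group lies low for most of these.

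Tyrosinase catalyses the first and rate-limiting steps of melanin synthesis, and Tyr was read by 3 probe sets. In 1448821_at the unstressed day 6 arrays read -0.16, -0.29, 0.02 and -0.11 and the stressed day 6 arrays 0.10, -0.24, -0.06 and -0.06. At day 14 the unstressed arrays read 0.73, 1.50, 2.98 and 0.68 and the stressed arrays 1.24, 0.56, 2.09 and 1.89. Every day 14 array lay above every day 6 array. The group means went from -0.13 ± 0.13 to 1.47 ± 1.07 (SD, n = 4) in unstressed wounds, a rise of 1.61 (SE 0.41, limma adjusted p = 0.00615) or 3.05-fold, and in stressed wounds the rise was 1.51 (SE 0.41, limma adjusted p = 0.00771). The other probe sets of Tyr did not pass. In 1417717_a_at the day 14 arrays read 0.59, 1.77, 2.68 and -1.42 in unstressed and 0.19, -1.21, 1.55 and 2.56 in stressed wounds, with differences from day 6 of 1.07 (SE 0.81, limma adjusted p = 0.307) and 1.43 (SE 0.81, limma adjusted p = 0.161). In 1456095_at the differences were 0.83 and 0.35 (adjusted p = 0.124 and 0.515). Over the 8 day 14 arrays the 3 probe sets correlated with Pearson r of 0.86 to 0.92, although they disagreed on the call.

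Tyrp1 encodes an enzyme of the brown-to-black (eumelanin) branch that also stabilises tyrosinase. In its probe set 1415862_at the stressed arrays read -0.08, -2.03, -1.20 and 0.38 at day 6 and 1.83, -0.01, 2.91 and 3.47 at day 14. The groups overlap through replicate 2 of day 14, the lowest of its group. The rise was 2.78 (SE 0.80, limma adjusted p = 0.0106) or 6.88-fold. With only the low-Xist arrays the difference was 1.64 (adjusted p = 0.066) and did not pass. Tyrp1 was also not called in stressed wounds when 1 probe set per gene (1439409_x_at) or the mean of its 3 was tested. In unstressed wounds the same probe set read 0.01, -0.05, -1.28 and 0.45 at day 6 and 1.66, 2.61, 3.28 and -0.29 at day 14, a difference of 2.03 (SE 0.80, limma adjusted p = 0.0531) that did not pass. The probe sets 1415861_at and 1439409_x_at passed in neither, with differences of 1.18 and 1.46 in unstressed and 1.31 and 1.55 in stressed wounds.

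Dct, dopachrome tautomerase, acts between the other enzymes and was read by 1 probe set. Its day 14 arrays read 0.90, 1.33, 1.90 and -1.88 in unstressed and 0.04, -1.40, 1.0 and 1.77 in stressed wounds. Both day 14 groups thus held arrays far above and arrays below those of day 6, which ran from -1.06 to 0.47. The differences from day 6 were 0.50 (SE 0.70, limma adjusted p = 0.595) and 0.72 (SE 0.70, limma adjusted p = 0.422), with 95% intervals of -0.99 to 2.0 and -0.78 to 2.21. Neither passed, and intervals of this width do not show that Dct stayed level.

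Pmel forms the fibrils on which melanin is laid down, and Mlana encodes a melanosomal membrane protein, also called MART-1, that Pmel processing depends on. Pmel read -0.10, -0.13, 0.13 and 0.78 in unstressed and -0.14, 0.00, -0.96 and 0.00 in stressed wounds at day 6. At day 14 it read 1.77, 2.13, 2.78 and -1.80 in unstressed and 0.61, -0.56, 1.58 and 2.89 in stressed wounds. In the unstressed group 3 arrays were above all arrays of day 6 and the last was below all of them. The differences were 1.05 (SE 0.81, limma adjusted p = 0.321) and 1.41 (SE 0.81, limma adjusted p = 0.169), and neither passed. Without replicate 4 of the unstressed day 14 group the first became 2.05 (adjusted p = 0.013). Mlana read 0.60, 1.43, 2.26 and -1.58 in unstressed and -0.47, -1.24, 1.14 and 2.42 in stressed wounds at day 14, against a range of -0.36 to 0.60 over the 8 arrays of day 6. Its differences of 0.51 (SE 0.74, limma adjusted p = 0.615) and 0.56 (SE 0.74, limma adjusted p = 0.559) did not pass.

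Oca2 and Slc45a2 encode melanosomal transport proteins that act on the pH of the organelle, and loss of either causes albinism. Slc45a2 had the smallest SE of the called members. In 1437430_at it read -0.13, -0.07, -0.11 and 0.15 in unstressed and -0.04, 0.02, -0.20 and -0.26 in stressed wounds at day 6. At day 14 it read 0.94, 1.02, 0.83 and 0.61 in unstressed and 0.22, 0.19, 0.93 and 1.09 in stressed wounds. No array of day 14 reached down to those of day 6. It rose by 0.89 (SE 0.18, limma adjusted p = 0.00156) in unstressed and by 0.73 (SE 0.18, limma adjusted p = 0.00515) in stressed wounds, or 1.85- and 1.65-fold. Its other probe set, 1451055_at, rose by 1.30 (SE 0.30, limma adjusted p = 0.0033) and 1.16 (SE 0.30, limma adjusted p = 0.00591), and it too had no overlap between days in either kind of wound. With only the low-Xist arrays the stressed difference of 1437430_at was 0.32 (adjusted p = 0.052) and did not pass, while 1451055_at passed at 0.61 (adjusted p = 0.025).

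Oca2 read -0.30, -0.86, -0.33 and -0.06 in unstressed and -0.39, 0.11, -0.40 and 0.06 in stressed wounds at day 6. At day 14 it read 1.10, 1.97, 2.89 and -0.08 in unstressed and 1.04, 0.19, 2.03 and 2.77 in stressed wounds. The stressed groups did not overlap, and the unstressed groups overlapped through replicate 4 of day 14. It rose by 1.86 (SE 0.55, limma adjusted p = 0.0146) and by 1.66 (SE 0.55, limma adjusted p = 0.0226). Both calls are close to the threshold: without replicate 3 of the unstressed day 14 group the first was 1.38 (adjusted p = 0.0501), and leaving out replicate 1 or 3 of stressed day 6, or 3 or 4 of stressed day 14, gave 1.24 to 1.58 for the second (adjusted p = 0.055 to 0.073). With the Xist class as a block neither passed (1.44 and 1.25, adjusted p = 0.064 and 0.093), and with only the low-Xist arrays the stressed difference was 0.77 (adjusted p = 0.054).

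Trpm1 encodes a cation channel of melanocytes and retina, and was read by 4 probe sets. In 1418935_at the unstressed arrays read -1.30, -0.98, -0.75 and 0.04 at day 6 and 1.81, 2.34, 3.73 and 0.05 at day 14. In stressed wounds they read -0.40, -0.46, -1.01 and -0.04 at day 6 and 1.03, 0.70, 1.86 and 3.30 at day 14. Days did not overlap in either kind of wound, although replicate 4 of the unstressed day 14 group lay only just above the highest array of day 6. The rise was 2.73 (SE 0.64, limma adjusted p = 0.0036) in unstressed wounds, 6.65-fold and the largest of the 19, and 2.20 (SE 0.64, limma adjusted p = 0.0115) in stressed wounds. Of the other probe sets, 1440241_at rose by 0.94 (SE 0.25, limma adjusted p = 0.00701) and 1437531_at by 0.81 (SE 0.28, limma adjusted p = 0.0318) in unstressed wounds, while 1437445_at gave 0.70 (SE 0.28, limma adjusted p = 0.0548). The call of 1437531_at was lost with any of 5 single arrays left out (replicates 1, 2 and 3 of day 6 and 2 and 3 of day 14), with differences of 0.57 to 0.79 and adjusted p of 0.062 to 0.11, in the fit blocked by replicate number (adjusted p = 0.051) and with the Xist class as a block (0.69, adjusted p = 0.098). In stressed wounds these 3 gave 0.46 to 0.55 and did not pass.

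Gpr143, on the X chromosome, encodes a melanosomal receptor that limits melanosome growth and is mutated in ocular albinism. It read 0.03, -0.05, -0.65 and -0.08 in unstressed and -0.09, 0.01, -0.22 and 0.37 in stressed wounds at day 6. At day 14 it read 0.69, 1.54, 2.14 and -0.01 in unstressed and 0.56, -0.08, 1.62 and 1.63 in stressed wounds. It rose by 1.28 (SE 0.42, limma adjusted p = 0.0246) in unstressed wounds and gave 0.92 (SE 0.42, limma adjusted p = 0.0869) in stressed wounds, where replicate 2 of day 14 lay among the arrays of day 6. The first call was lost with the Xist class as a block (0.94, adjusted p = 0.104) and without replicate 3 of day 6 or replicate 2 or 3 of day 14 (0.93 to 1.13, adjusted p = 0.067 to 0.085), and without stressed day 14 replicate 2 the other comparison passed (1.26, adjusted p = 0.024).

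Mitf had another pattern over the arrays than the other 9 genes. It is transcribed from several promoters, and forms of it are also made in mast cells, osteoclasts and other cells. In 1455214_at the day 14 arrays read -0.75, -0.05, 0.86 and 1.32 in unstressed and -0.57, -1.60, 0.07 and 0.48 in stressed wounds, around a day 6 range of -0.28 to 0.44. In each day 14 group replicates 1 and 2 were the lower and replicates 3 and 4 the higher, which are also the low-Xist and high-Xist arrays. The differences from day 6 were 0.28 (SE 0.42, limma adjusted p = 0.628) and -0.45 (SE 0.42, limma adjusted p = 0.401). The other probe set, 1422025_at, lay within a range of 1.0 over all 16 arrays, with differences of 0.20 and 0.04. Neither probe set passed in any comparison in the fit of all arrays by group. With the Xist class as a block in that fit, 1455214_at passed as lower at day 14 in stressed wounds (-1.16, limma adjusted p = 0.0020), and it gave -0.44 (limma adjusted p = 0.184) in unstressed wounds.

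**Figure D2:**
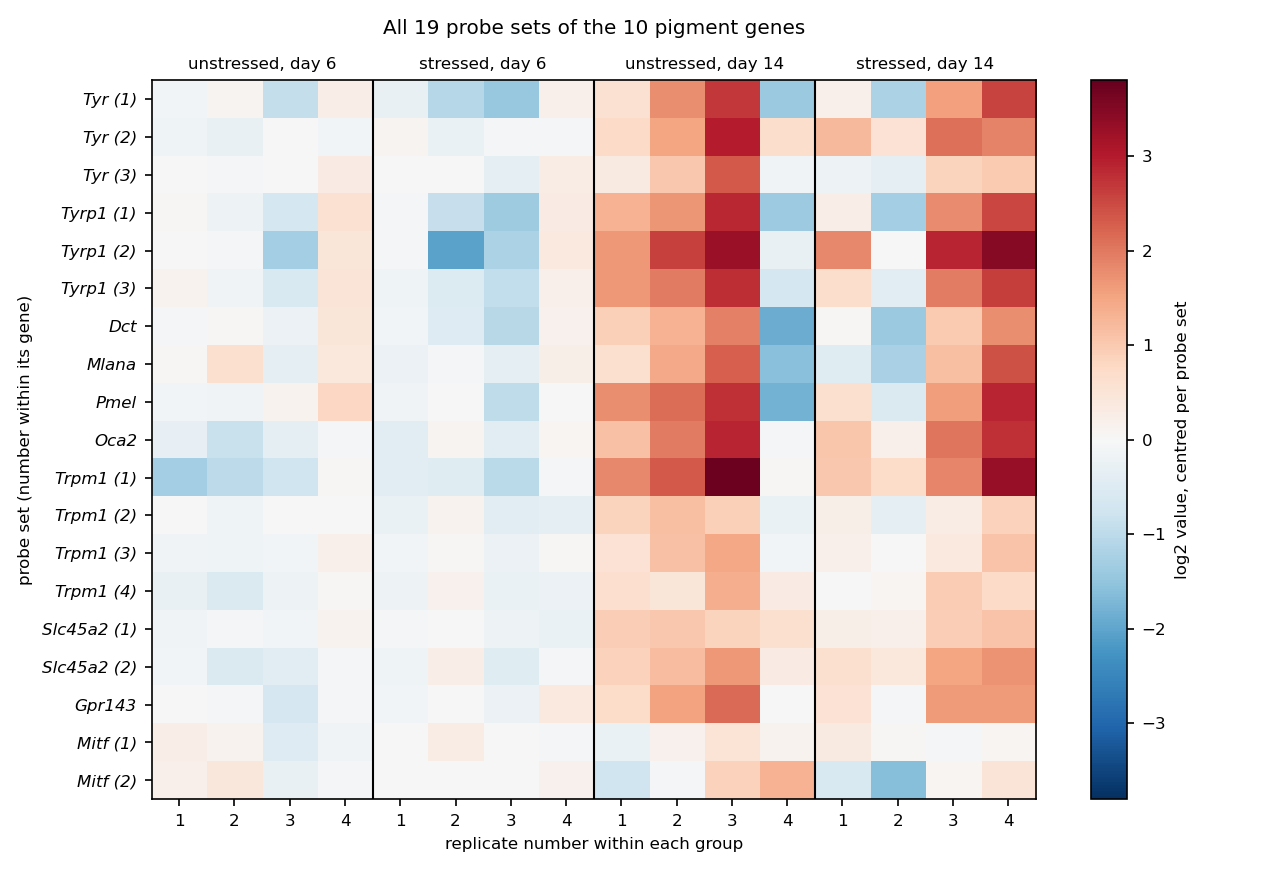
The log2 value (centred per probe set) of each of the 19 probe sets in rows, in the 16 arrays in columns, grouped by wound and day; numbers in brackets count the probe sets of a gene in the order of their identifiers. At day 14, replicate 3 of the unstressed and replicates 3 and 4 of the stressed group are high in most rows, and replicate 4 of the unstressed group holds rows above and below those of day 6.

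The day 14 arrays ranged widely, and in the same order for most members. The mean over the 19 probe sets was 0.84, 1.39, 2.12 and -0.33 in the unstressed and 0.41, -0.34, 1.29 and 1.84 in the stressed group, against -0.57 to 0.19 over the 8 arrays of day 6. In the unstressed group 16, 17, 19 and 6 of the 19 probe sets lay above all day 6 arrays, and in the stressed group 10, 5, 17 and 18. Replicate 4 of unstressed day 14 had 4 probe sets below all day 6 arrays, those of Dct, Mlana and Pmel and 1 of Tyrp1, while 6 lay above them, namely both of Slc45a2, 2 of Trpm1, 1 of Tyr and Mitf 1455214_at. Without that array 7 member genes, and not 5, were called higher in unstressed wounds, Pmel and Tyrp1 being added. Without replicate 3 of the same group 3 were (Tyr, Trpm1 and Slc45a2). In these fits, in that order, 15.2% and 14.2% of all probe sets were called higher. The probe sets called rose from 8 to 14 without replicate 4, with Tyr 1456095_at at 1.18 (adjusted p = 0.032), the 3 of Tyrp1 at 2.02 to 2.73 (0.0078 to 0.039) and Trpm1 1437445_at at 1.0 (0.0032) among those added. In stressed wounds, Tyr 1417717_a_at (2.09, adjusted p = 0.043) and Tyrp1 1439409_x_at (2.10, 0.017) passed without day 14 replicate 2, and Trpm1 1440241_at (0.70, 0.039) without replicate 1.

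**Figure D3:**
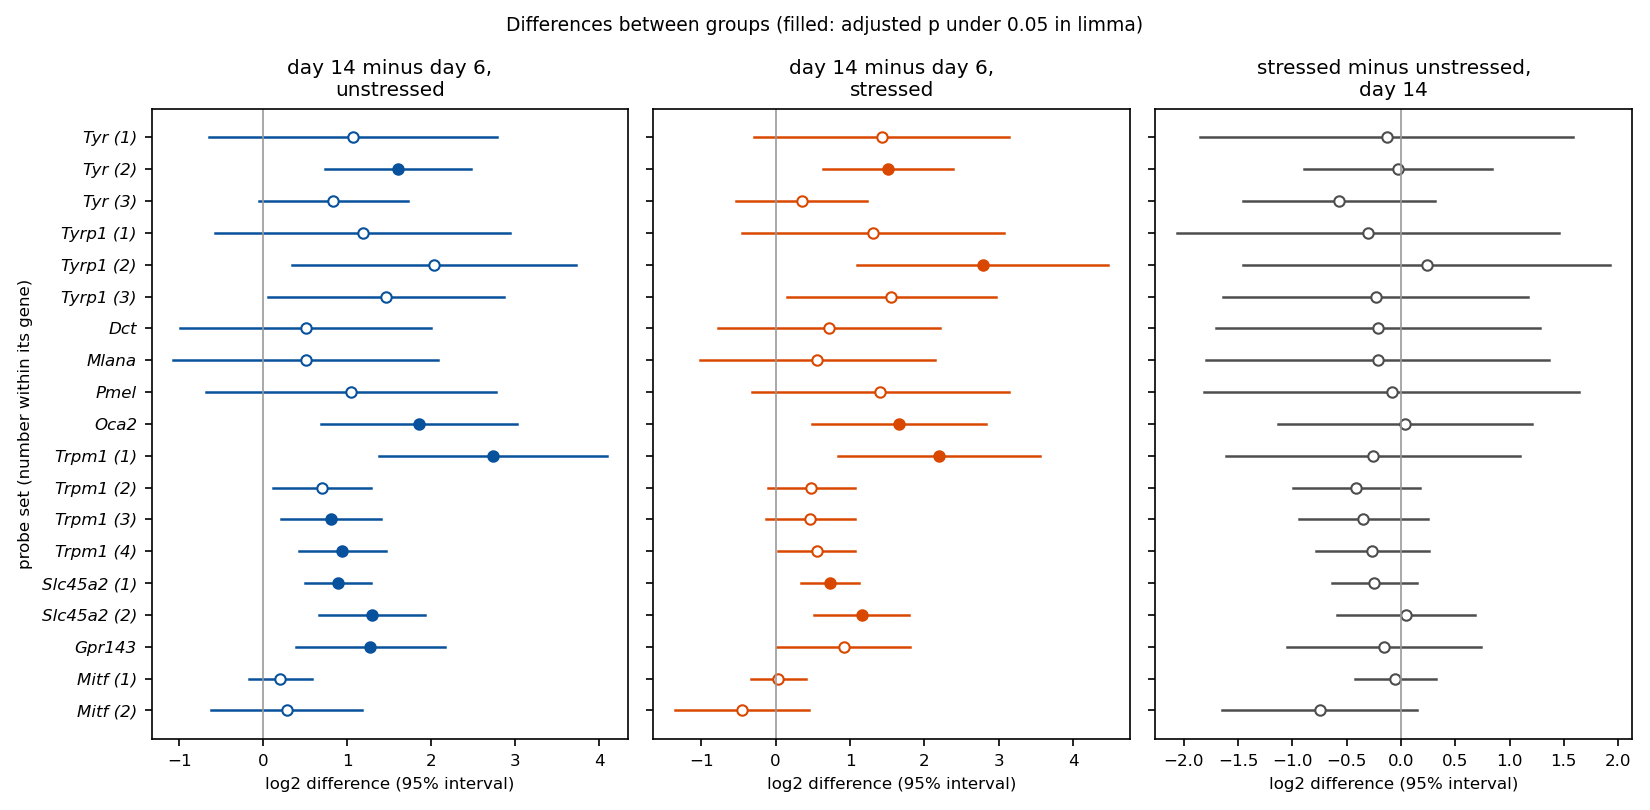
The fitted log2 difference of each of the 19 probe sets with its 95% interval, for day 14 minus day 6 in unstressed wounds, the same in stressed wounds, and stressed minus unstressed wounds at day 14; filled points passed an adjusted p of 0.05 in limma. The differences between days lie mostly to the right of 0 with 8 and 6 filled points, and those for loading lie around 0 with none.

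Loading itself gave no call among the pigment genes. At day 6, after 48 hours of load, 0 of the 19 probe sets passed in limma and 0 had an unadjusted p under 0.05, where 0.0258% of all probe sets passed. The differences between stressed and unstressed wounds ran from -0.51 to 0.28 with a median of -0.08, and 7 of the 19 were above 0. None had groups that did not overlap, which 6.16% of all probe sets had. The largest in size was that of Tyrp1 1415862_at, -0.51 (SE 0.80, limma adjusted p = 0.9999).

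At day 14, after 10 days of load, again 0 of the 19 passed and 0 had an unadjusted p under 0.05, where 7.35% of all probe sets passed. That share was 1.04% with quantile normalization and 0.349% with only the arrays of these 2 groups in the fit, and 0 of the 19 passed in either. A count of 0 passing in 19 is near each of these shares and says nothing particular about the pigment genes. The differences ran from -0.75 to 0.24 with a median of -0.21, and 16 of the 19 were below 0. Groups did not overlap for 0 of the 19 and for 10.1% of all probe sets. The largest in size was that of Mitf 1455214_at, -0.75 (SE 0.42, limma adjusted p = 0.308). For the enzymes the 95% intervals were wide, -1.85 to 1.58 for Tyr 1417717_a_at, -2.06 to 1.45 for Tyrp1 1415861_at and -1.71 to 1.29 for Dct, and each spans a change of 1 in either direction. The fit took the spread of a probe set from both days, so the quieter day 6 arrays make these intervals too narrow for day 14. Tyr 1417717_a_at had SDs of 1.77 and 1.64 in the unstressed and stressed groups of day 14. At day 6 these were 0.52 and 0.75. For Slc45a2 1437430_at the interval was -0.64 to 0.15, the second narrowest after that of Mitf 1422025_at. The loading effects of the 2 days differed in 0 of the 19 probe sets, with differences of -0.73 to 0.75 and 0 at an unadjusted p under 0.05, where 0.00858% of all probe sets passed. The same contrast tests whether the change from day 6 to day 14 differed between stressed and unstressed wounds.

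The loading differences at day 14 had medians of opposite sign in the low-Xist and the high-Xist arrays, of which each group held a pair. In the low-Xist arrays (replicates 1 and 2) stressed minus unstressed had a median of -0.97 over the 19 probe sets, from -2.03 to 0.22, with 18 below 0. In the high-Xist arrays (replicates 3 and 4) the median was 0.61, from -0.82 to 1.75, with 15 above 0. Pmel was at 1.77 and 2.13 in the unstressed against 0.61 and -0.56 in the stressed low-Xist arrays, and at 2.78 and -1.80 against 1.58 and 2.89 in the high-Xist arrays. In the low-Xist pairs the stressed arrays were thus the lower, and in the high-Xist pairs replicate 4 of the unstressed group alone was low. Mitf 1455214_at was lower in stressed wounds in both, by values of -0.68 and -0.82.

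Fitted on the low-Xist arrays only (2 against 2 at day 14), 10 probe sets of 7 genes were called lower in stressed wounds in limma, where 11.0% of all probe sets were called lower in that fit. With the adjusted p in brackets, they were Mlana with -1.87 (0.0041), Pmel with -1.92 (0.0080), Dct with -1.80 (0.016), Tyrp1 with -2.03 and -1.69 (0.029 and 0.016), Tyr 1456095_at with -0.97 (0.016), Slc45a2 1437430_at with -0.78 (0.0037), and 3 probe sets of Trpm1 with -0.75 to -1.21 (0.0061 to 0.049). In the low-Xist fit the within-group spread comes mostly from the day 6 arrays, which are quieter for most members. The adjusted p given for it thus say little about the spread between wounds at day 14. With the high-Xist arrays only at day 14, 0 genes were called, where 2.29% of all probe sets were, so a count of 0 in 19 says nothing particular about the pigment genes. With the Xist class as a block in all 16 arrays, Mitf 1455214_at passed as lower in stressed wounds at -0.75 (adjusted p = 0.041), where 6.62% of all probe sets did, and no other member passed. The difference between the classes was not tested.

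**Figure D4:**
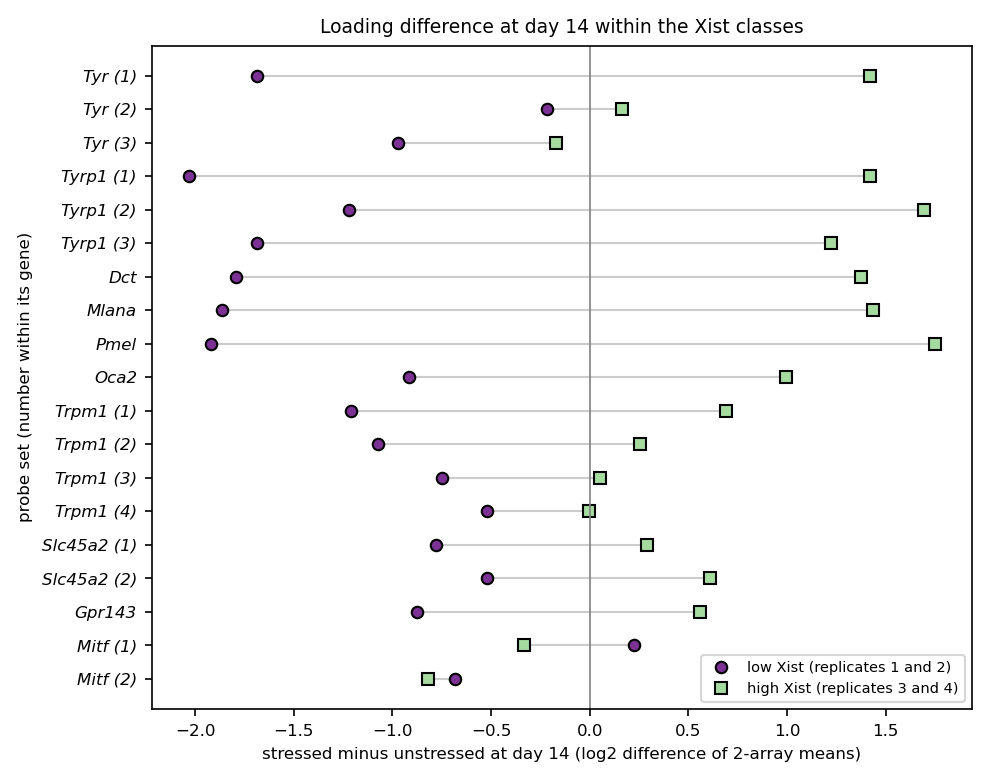
Stressed minus unstressed at day 14 on the log2 scale for each of the 19 probe sets, as a difference of means of 2 arrays each, in the low-Xist arrays (circles) and the high-Xist arrays (squares). Circles lie below 0 for 18 probe sets and squares above 0 for 15.

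The calls between days were also counted within the Xist classes. In the fits with 1 class at day 14 the within-group spread again comes mostly from the day 6 arrays. Day 6 holds low-Xist arrays only, so a comparison within 1 class uses the day 14 arrays of replicates 1 and 2. In them 15 probe sets of 8 genes were called higher in unstressed wounds, where 14.7% of all probe sets were, with a median difference of 1.25 over the 19. In stressed wounds 3 probe sets, 1 each of Tyr, Trpm1 and Slc45a2, were called higher, where 19.4% of all probe sets were, so this count is no more than the background. There Mitf 1455214_at was called lower (-1.13, adjusted p = 0.0060), where 27.6% of all probe sets were, and the median over the 19 was 0.15. With the day 14 arrays of the high-Xist class, 8 probe sets of 6 genes were called higher in unstressed wounds and 13 of 7 genes in stressed wounds, where 15.7% and 13.0% of all probe sets were, with medians of 1.03 and 1.75. Mitf 1455214_at was among the 6 (1.03, adjusted p = 0.0027) and thus had the opposite sign to the low-Xist arrays, where it gave -0.47 in unstressed wounds. With the Xist class as a block, 5 probe sets of Tyr, Trpm1 and Slc45a2 were called higher in unstressed wounds, where 14.5% of all were. In stressed wounds that fit called 5 probe sets of Tyr, Tyrp1, Trpm1 and Slc45a2 higher, where 17.9% of all were, and Mitf lower as given above, where 26.0% were.

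Apart from Mitf, the members varied together from wound to wound. With 1 probe set per gene, the one with the largest interquartile range, the 36 pairs among the 9 other genes had Pearson r of 0.90 to 0.99 over the 8 arrays of day 14 (median 0.97, Spearman's rho 0.88 to 1). The 9 pairs with Mitf had r of 0.08 to 0.40. At day 6 the 36 pairs had r of -0.15 to 0.94 and the 9 pairs -0.44 to 0.68. These are descriptions over arrays that share tissue, groups and Xist classes, and no p is given for them. On these probe sets the 9 genes kept nearly the same order of the day 14 arrays, and Mitf, the gene of their known activator, had another. Other probe sets agreed less. The pair of Slc45a2 had r of 0.76 with each other at day 14 and the 6 pairs of Trpm1 0.57 to 0.96, and Slc45a2 1437430_at and Trpm1 1440241_at had r of 0.78 and 0.81 with the mean profile. The pair of Mitf agreed least, with r of 0.40, so the order given for Mitf is that of 1455214_at alone. With the mean profile at day 14, Mitf 1455214_at had r of 0.40 and 1422025_at 0.25.

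The 10 genes outside the members whose values were most like their mean profile over the 16 arrays were named by Pearson r. They were Syt4 (0.96), a synaptotagmin, Ptgds (0.95), which makes prostaglandin D2, Hunk (0.93), a kinase, Dlx3 (0.93), a homeobox gene of the hair follicle, Slc39a10 (0.92), a zinc transporter, Mc1r (0.92), the melanocortin receptor of melanocytes, Lef1 (0.92), a mediator of Wnt signals, Pi15 (0.91), Tardbp (0.91) and Sp6 (0.90), a transcription factor of skin appendages. After the group means were subtracted, the r of these 10 lay between 0.87 and 0.97. The choice of the highest of 34945 probe sets makes such values high by itself.

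Genes that act upstream of pigment synthesis were taken from a list of 21 transcription factors, ligands and receptors of melanocytes, all on the array, with 52 probe sets. In unstressed wounds 17 probe sets were called higher at day 14 and 10 lower (median 0.29), and in stressed wounds 12 higher and 9 lower (median 0.08). Of all probe sets, 16.8% were called higher in unstressed and 18.7% in stressed wounds. The shares of all probe sets called lower were 23.4% in unstressed and 26.6% in stressed wounds, above those of this list. Mc1r, the receptor through which melanocortin raises eumelanin synthesis, rose by 0.75 in both (1422069_at, limma adjusted p = 0.0012 and 0.0010). Pax3, a transcription factor of the melanocyte lineage, rose by 0.77 and 1.13 (1420389_at). Kit, the receptor for stem cell factor, rose by 0.56 and 0.72 (1415900_a_at), and Kitl, its ligand, by 0.84 and 0.95. Edn3, an endothelin that supports melanocytes, rose by 0.65 and 0.92 in 1438696_at, while another of its probe sets gave -0.76 and -0.20, the first passing as lower. Lef1 rose by 1.98 and 1.06 (1454734_at). Mc1r, Pax3, Kit, Kitl and Lef1 each have further probe sets on the array, whose differences are not given here. None of these was called lower in either kind of wound. For Mc1r they include 1435393_at, the one named above as like the pigment profile.

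Sox10, which activates Mitf, had 1 probe set that rose (1424985_a_at, 0.37 and 0.62) and 1 that was called lower in unstressed wounds (1425369_a_at, -0.37). Bcl2, a survival gene, Hgf, a growth factor, and Met, its receptor, also had probe sets called in opposite directions. Ednrb and Edn1 rose in unstressed wounds (0.96 and 1.44), as did Tfap2a in both of its called probe sets (0.71 and 0.65). Zeb2, Tfe3 and Tfec were called lower in both kinds of wound. For Zeb2 the differences reached -2.36 in unstressed and -2.67 in stressed wounds; Tfe3 and Tfec encode relatives of MITF. With loading at day 14, where 4.04% of all probe sets were called lower and 3.31% higher, 5 probe sets of this list were called lower and 0 higher: both of Tfap2a named above (-1.07 and -0.74), Bcl2 (-1.02), Met (-0.96) and Edn1 (-0.85). With quantile normalization 1 probe set of the list was called lower, and with only the day 14 arrays in the fit 0 were.

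The general machinery of melanosome assembly and transport did not share the direction of the pigment genes. Of its 25 genes on the array (47 probe sets), 5 probe sets were called higher and 19 lower at day 14 in unstressed wounds (median -0.38), and 6 higher and 19 lower in stressed wounds (median -0.35), where 23.4% and 26.6% of all probe sets were called lower. Many of these genes also serve endosomal and lysosomal sorting in other cells. Called lower in both kinds of wound were Ap3d1, Bloc1s4, Bloc1s5, Bloc1s6, Dtnbp1, Hps4, Rab32, Rabggta, Tpcn2 and Vps33a. Ap3b1, Hps6 and Rab38 were also called lower in unstressed wounds, and Atp7a, Bloc1s2, Mreg and Myo5a in stressed wounds, while 0 probe sets of the list passed in the test of the difference between these wounds. Bloc1s4, a subunit of a complex that sorts melanosomal cargo, gave -1.31 and -1.26 in 1418834_at. Mlph, which links melanosomes to myosin for transport, rose by 0.74 and 0.47 in 1449896_at. Hps1, Lyst and Rab27a had probe sets called in opposite directions. With loading at day 14, Ap3b1 was called higher (0.97) and Atp7a (-0.84) and Mlph (-0.47, 1449896_at) lower, and 0 were called with quantile normalization or with only the day 14 arrays in the fit.

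Of 6 other genes known from melanocytes or as MITF targets (14 probe sets), Gpnmb, a melanosomal protein also made by macrophages, fell by 1.19 in unstressed and 1.27 in stressed wounds on the log2 scale. Tbx2 fell by 0.59 and 0.66, Tbc1d16 fell by 0.51 in unstressed wounds, and Bace2 had probe sets called in both directions. No probe set of these 6 genes was called for loading at either day, and Mcoln3 and Cdk2 were called in no comparison.

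Markers of the growing hair moved with the pigment genes. Of 28 genes of the hair shaft, inner root sheath and matrix (32 probe sets), 27 were called higher at day 14 in unstressed wounds (29 probe sets, median 4.33), and 23 were called higher and Gata3 lower in stressed wounds (median 3.22). The shares of all probe sets called higher were 16.8% in unstressed and 18.7% in stressed wounds. Tchh, S100a3 and Krt27 had the smallest adjusted p in unstressed wounds. The mean over the 32 probe sets was 1.39, 2.53, 4.21 and 3.77 in the unstressed and 0.96, 1.09, 2.74 and 3.84 in the stressed arrays of day 14, against -1.26 to 0.04 at day 6. Unstressed replicate 3 and stressed replicate 4 had the highest means of both kinds. Replicate 4 of the unstressed group had the third highest hair mean and a pigment mean of -0.33, within the range of day 6. Replicate 2 of the stressed group, too, had a hair mean above all arrays of day 6 (1.09) and a pigment mean within their range (-0.34). With loading at day 14, 0 of the 32 hair probe sets were called, where 7.35% of all probe sets were, and 31 lay below 0 (median -0.71). The part of the hair follicles in the differences of the pigment genes was not tested.

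**Figure D5:**
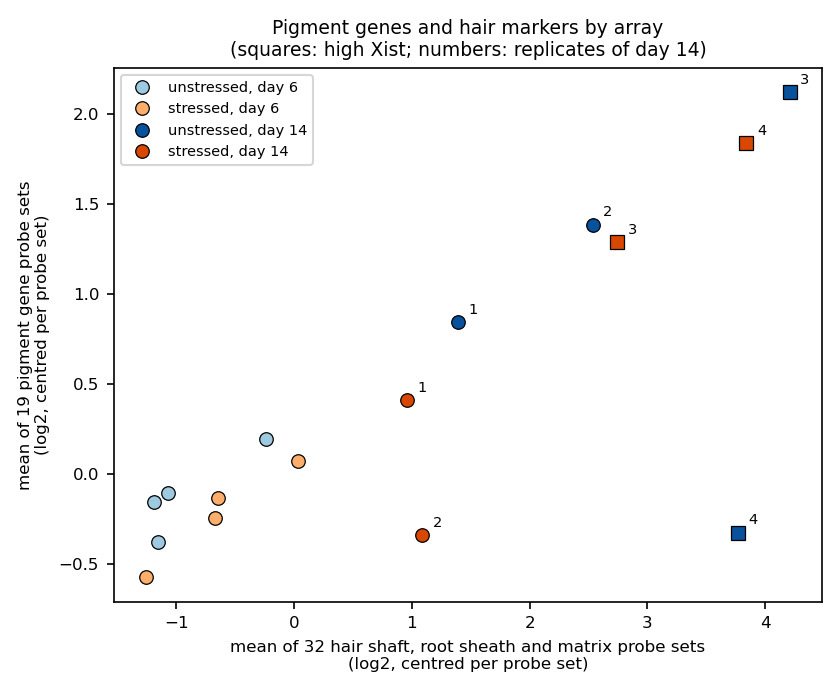
Each point is 1 of the 16 arrays, by the mean log2 value of the 32 hair marker probe sets (horizontal) and of the 19 pigment gene probe sets (vertical); squares are high-Xist arrays and numbers give the replicates of day 14. Day 6 arrays lie at the lower left and 6 of the 8 day 14 arrays lie higher and to the right; replicate 4 of the unstressed and replicate 2 of the stressed group lie to the right at the height of day 6.

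Markers of mast cells, macrophages and Schwann cells, which can express some of these genes, had medians below 0 between the days, while adipocyte markers, in unstressed wounds, had a median close to that of the pigment genes. Over all probe sets the medians were -0.05 in unstressed and -0.07 in stressed wounds. There 16.8% were called higher and 23.4% lower in unstressed wounds, and 18.7% higher and 26.6% lower in stressed wounds. In unstressed wounds 9 of the 10 adipocyte probe sets were above 0 (median 1.04) and 3 were called higher, of Fabp4 and Lep. In stressed wounds 0 of the 10 were above 0 (median -0.81) and 3 were called lower, of Adipoq and Lpl. Their part in the differences of the pigment genes was not tested. Of 9 mast cell genes (12 probe sets), mast cells being another source of Mitf and Kit, 0 probe sets were called higher and 2 (Cma1 and Hdc) lower in unstressed wounds, and 4 lower in stressed wounds, with medians of -0.47 and -0.58. Macrophage markers (11 probe sets) gave 10 lower and 9 lower, with medians of -2.07 and -0.92, led by Fcgr1, Cd68 and Cd14 in unstressed wounds. At day 14 they were called higher with loading in 7 of the 11 (median 1.44), where 3.31% of all probe sets were. Of 33 Schwann cell probe sets, the cell that shares Sox10 with melanocytes, 4 were called higher and 8 lower in unstressed wounds and 3 higher and 6 lower in stressed wounds, with medians of -0.09 and -0.29. These Schwann cell counts are near or below the shares over all probe sets, and the unstressed median is close to theirs. Basal keratinocyte markers (13 probe sets) had medians of -0.48 and -0.14, and fibroblast markers (13 probe sets) of -0.95 and 0.03.

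Markers of skeletal muscle, adipocytes and fibroblasts had probe sets called with loading at day 14, where 4.04% of all probe sets were called lower and 3.31% higher. Skeletal muscle markers were called lower in stressed wounds in 12 of 18 probe sets (median -2.84), led by Pygm, Myot and Tnni2, and adipocyte markers in 7 of 10 (median -1.68), led by Cidec, Fabp4 and Adipoq. Fibroblast markers were called higher in 8 of 13 (median 1.22). With quantile normalization 7 of the 18 muscle, 1 of the 10 adipocyte, 7 of the 13 fibroblast and 1 of the 11 macrophage probe sets were called, and with only the day 14 arrays in the fit 2 fibroblast probe sets were and none of the other 3 lists. Whether these shifts bear on the values of the pigment genes was not tested.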

How the data were processed

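The authors deposited 1 table of log2-scale values for 16 arrays, made from the scanner intensities with GeneSpring GX 11.0, per the series design text, which also gives 20 oligonucleotide pairs per gene. The log base is not given in the sources used here: it was read as 2 because a probe set spans up to 10.08, and natural logs are possible and would make each difference larger. The values were centred per probe set around an unknown reference, which cancels in differences, and no level, background or detection can be judged. The number of arrays limits the precision.

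Of 45101 probe sets, 34945 had exactly 1 symbol in the platform annotation and were tested; 932 had several, 9211 had none and 64 were controls, 13 of them with a symbol. All 16 arrays were fitted by group in R 4.3.3 with the package limma 3.58.1 (functions lmFit and eBayes, two-sided, Benjamini-Hochberg over all probe sets, threshold 0.05), and 5 contrasts were taken. A gene was called if any of its probe sets was. The fit takes a single spread per probe set from all groups, although the day 14 arrays of most members spread wider than those of day 6. For such members the SE is too small for loading at day 14 and too large for loading at day 6. The fit was checked on simulated data, which had the same spread in all groups. Summaries and plots used matplotlib 3.10.9, scipy 1.17.1, numpy 2.4.6 and pandas 2.3.3 under Python 3.11.15.

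The members, lists and tests were chosen with earlier results of these data known. All member probe sets are named; of the pathway lists, genes called in any contrast; of the cell type lists, up to 3 genes with the smallest adjusted p. Likeness is Pearson r with the mean z-score of the members. Bloc1s1, Slc24a5, Krt85, Dsg4, Prx and Plin1 were not matched to a probe set, nor were the older symbols Cno, Muted, Pldn and Emr1; agouti was matched by its older symbol.

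Replicates of a group differed (SD of the difference at least 0.237). Same-numbered stressed and unstressed arrays deviated together at day 14 (correlations 0.25, 0.17, 0.26 and 0.15) and not at day 6 (-0.41 to -0.02); their numbers also share the Xist class, and nothing in the labels pairs them, so the block is an alternative only. Alternatives were 1 probe set per gene, the mean of a gene's probe sets, quantile normalization, median centring, array weights, robust eBayes, leaving out the 25% of probe sets with the lowest SD, only the groups compared, the Xist class as a block, only low-Xist arrays, the replicate block and each array left out; only high-Xist arrays at day 14 was chosen after seeing the data.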

Additional observations from a re-analysis of the deposited data

Results flagged for a closer look

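In 5 of the 76 sets of 4 arrays formed by the 19 probe sets and the 4 groups, 1 array stood apart by Dixon's criterion (its gap to the nearest array over the range of the group), and chance gives about 1 in 20 such groups. All 5 were at day 6. Pmel read -0.96 in stressed replicate 3, with the other arrays at -0.14 to 0.00, and Gpr143 read -0.65 in unstressed replicate 3, with the others at -0.08 to 0.03. Trpm1 read 0.20 in unstressed replicate 4 (1437531_at; others -0.16 to -0.12) and 0.18 in stressed replicate 2 (1440241_at; others -0.25 to -0.19). Mitf 1455214_at read 0.17 in stressed replicate 4, with the others within 0.01 of 0. No array of a day 14 group met the criterion.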

How the results depend on the processing

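The count of member genes called for loading at day 6 was 0 in every alternative run. For loading at day 14 it was 0 with these exceptions, all called lower. Array weights gave 1 (Trpm1), where 8.31% of all probe sets were called lower. The Xist class as a block gave 1 (Mitf), where 6.62% were. Only the low-Xist arrays gave 7, where 11.0% were, in a fit whose within-group spread comes mostly from day 6. For the difference between the loading effects the count was 0 except with only the low-Xist arrays. There 2 genes (Mlana and Slc45a2) were called lower, where 5.13% of all probe sets were. The value of Mlana turned from 0.05 to -1.60 in that fit. For time in unstressed wounds the count of 5 became 3 with the Xist class as a block and 8 with only the low-Xist arrays. In those fits 14.5% and 14.7% of all probe sets were called higher. The count ran from 3 (without unstressed day 14 replicate 3) to 7 (without replicate 4) with single arrays left out. There 13.2% to 15.9% of all probe sets were called higher. For time in stressed wounds the count of 5 became 3 with 1 probe set per gene and 3 with the mean of a gene's probe sets. In those fits 24.0% and 18.6% of all genes were called higher. The count ran from 4 to 6 with single arrays left out, where 15.2% to 19.2% of all probe sets were called higher. It was also 5 with the Xist class as a block, with Oca2 lost and Mitf added as lower (-1.16, adjusted p = 0.0020, against -0.45 and 0.401 without the block). With the replicate number as a block the counts were 5 and 5 for time and 0 for loading, and the block changed no call but that of Trpm1 1437531_at. The cause of these shifts was not tested.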
